A study of Mus musculus with 8 samples.

Results

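Transcripts of 10 mouse Toll-like receptors, Tlr1, Tlr2, Tlr3, Tlr4, Tlr5, Tlr6, Tlr7, Tlr8, Tlr9 and Tlr13, were followed through 8 bulk RNA-seq libraries of sorted mononuclear cells. The receptors were chosen by name, as 10 of the 52784 genes in the count table, and were divided by where the protein sits in the cell into 5 surface receptors (Tlr1, Tlr2, Tlr4, Tlr5, Tlr6) and 5 endosomal receptors (Tlr3, Tlr7, Tlr8, Tlr9, Tlr13). Cells came from the whole bodies of 1-week-old pups of CD11c-DTR dams (C57BL/6, B6) and BALB/c sires, and were separated into trafficked maternal cells, which had crossed from the dam and were sorted on H2K-b, and recipient cells of the F1 pups, sorted on H2K-d. Each origin gave 4 libraries. Uninjected pups had no intrauterine transplantation (IUT). DC control mIUT pups received B6 bone marrow mononuclear cells and DC control pIUT pups received BALB/c cells, both after saline to the dam. DC-depleted pIUT pups received BALB/c cells after diphtheria toxin (DT, 5 ng/g) had been given to the dam on embryonic day 13 to deplete dendritic cells (DC). IUT was an injection of 5000000 cells into the fetal liver on embryonic day 14. Every dam carried CD11c-DTR, a DT receptor driven by the promoter of Itgax, and uninjected pups came from dams with or without DT. Pups were pooled and each group was 1 library, so every comparison of treatments below compares libraries and has no replicate check. Recipient F1 cells carry H2K-b as well as H2K-d. Donor cells of mIUT carry H2K-b, as maternal cells do, and those of pIUT carry H2K-d, as recipient cells do. Donor cells of mIUT differed from dams in the CD45 allele, but the paper describes the RNA-seq sort by H2K-b and H2K-d only. The part of donor cells in a sorted library, or of recipient cells in a maternal one, therefore cannot be told apart.

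Toll-like receptors are sentinels of innate immunity that recognise conserved microbial molecules and signal through the adaptors Myd88 or Ticam1 to NF-kB and interferon regulatory factors. Surface receptors mostly sense lipids and proteins of the microbial envelope, whereas endosomal receptors sense nucleic acids after uptake and need the chaperone Unc93b1 to leave the endoplasmic reticulum. Neutrophils, monocytes and macrophages are rich in Tlr2, Tlr4 and Tlr13, and B cells and plasmacytoid dendritic cells are known for Tlr7 and Tlr9.

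Libraries held between 38543457 and 47965130 gene counts, and levels are given as counts per 1000000 (CPM) of the effective library size, which is the total count multiplied by a factor from the trimmed mean of M-values (TMM). All 4 pan-leukocyte markers (Ptprc, Cd52, Coro1a, Laptm5) exceeded 3 counts in every library, with summed levels between 458.3 and 9972 CPM. Markers of erythroid cells, which the leukocyte markers do not cover, summed to between 134.6 and 131800 CPM. Detection was uneven. Of the genes at 10 CPM or more in the other 7 libraries, 359 of 3776 (9.51%) were under 1 CPM in recipient uninjected cells and 176 of 3622 (4.86%) in maternal cells after DC control mIUT, against at most 1.26% in any other library. Values of 0 below are therefore given with the CPM that 3 counts would make, which was between 0.0547 and 0.105, and every comparison with the recipient uninjected library rests on that library. Intervals are 95% intervals that cover counting error only, since reads carried no molecular identifiers. In bulk samples, fewer cells of a type and less RNA per cell cannot be told apart.

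Tlr1 and Tlr6 are neighbours that share sequence, which bears on how reads are divided between them. Their longest identical run was 229 bases, within a coding exon of each gene, at chr5:65082880-65083108 for Tlr1 and chr5:65111171-65111399 for Tlr6, both on the minus strand of GRCm39. It is shown because a read of 150 bases that falls inside it belongs equally to either gene.
Tlr1 and Tlr6 shared run: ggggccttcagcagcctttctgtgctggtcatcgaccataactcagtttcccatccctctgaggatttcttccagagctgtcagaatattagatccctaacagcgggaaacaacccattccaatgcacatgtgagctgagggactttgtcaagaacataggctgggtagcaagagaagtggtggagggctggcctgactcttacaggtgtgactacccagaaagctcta
Of all 150-base windows in their exons, 139 were shared, which is 4.13% of those of Tlr1 and 2.90% of those of Tlr6. No other pair of the receptors shared a window of that length. Counts of Tlr1 and Tlr6 are therefore uncertain as far as the division of these reads goes.

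All 10 receptors exceeded 3 counts in at least 1 library, and 2 of them, Tlr2 and Tlr13, did so in all 8. In maternal cells 7 receptors exceeded 3 counts in the uninjected library, 6 after DC control mIUT, 4 after DC control pIUT and 5 after DC-depleted pIUT. In recipient cells the numbers were 5, 9, 10 and 9 in the same order. Genes of any kind above 3 counts numbered 13869, 10664, 13628 and 14540 in maternal cells and 9937, 14585, 15975 and 17806 in recipient cells. Recipient uninjected cells thus had the fewest receptors and the fewest genes among recipient libraries. Tlr3, Tlr5 and Tlr8 had 0 counts in all 4 maternal libraries.

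**Figure D1:**
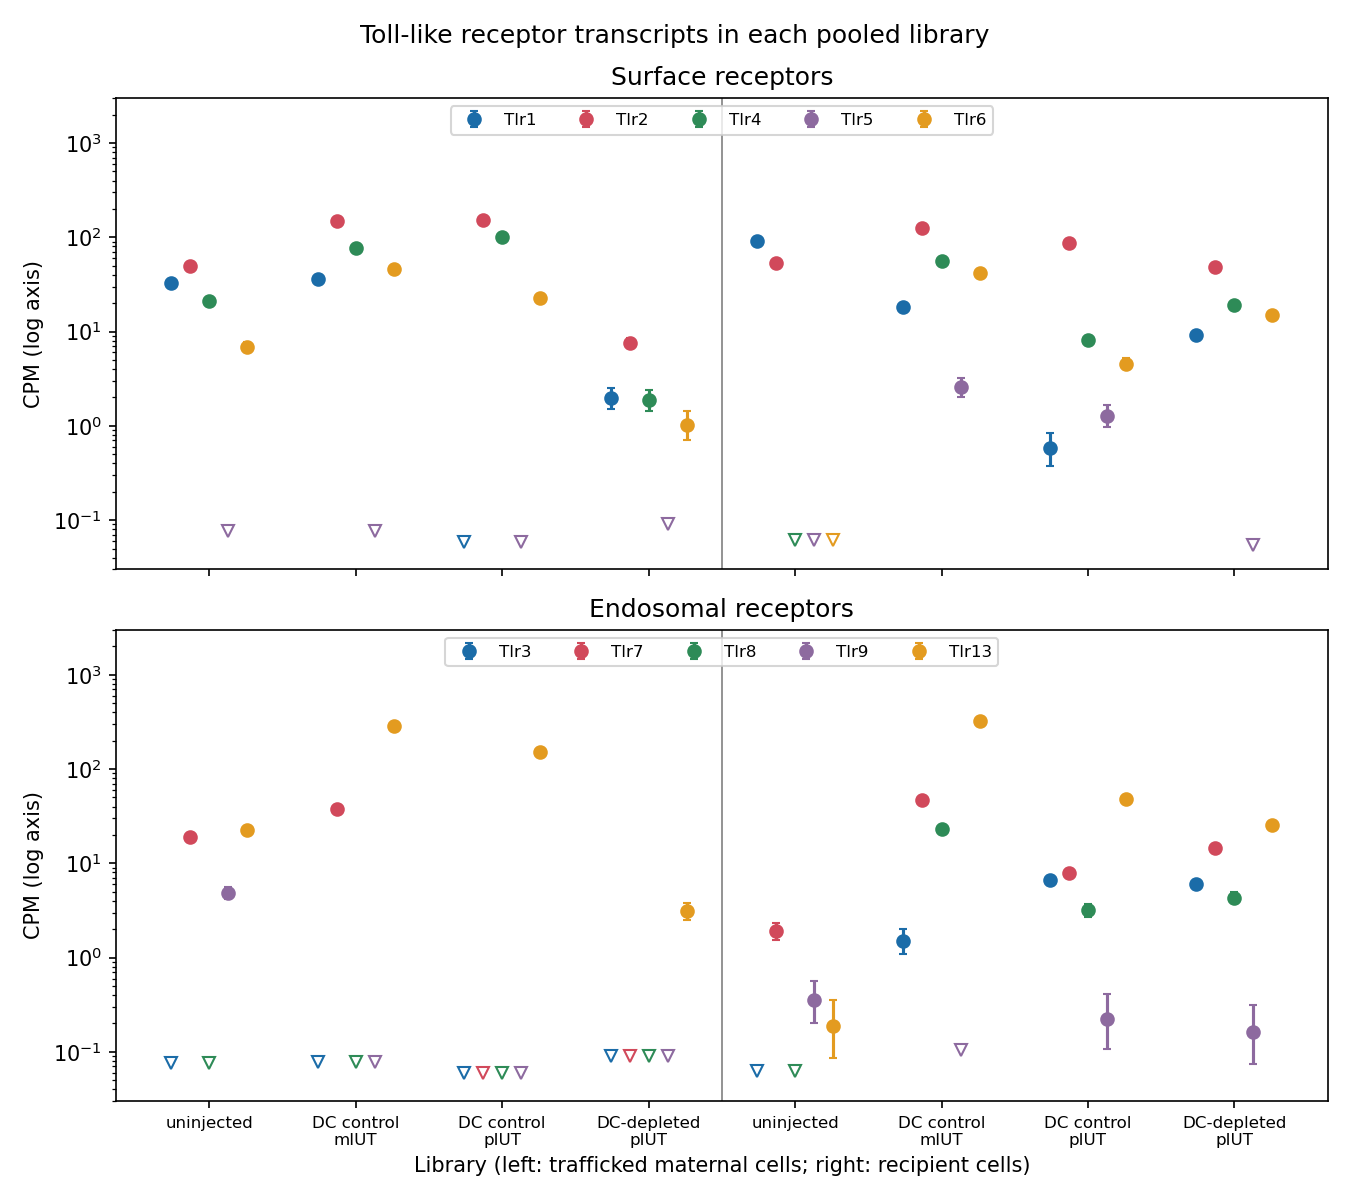
CPM of each surface receptor (upper panel) and endosomal receptor (lower panel) on a log axis in the 4 maternal libraries (left) and 4 recipient libraries (right). Points are single libraries with exact Poisson 95% intervals, and open triangles mark libraries with 3 counts or fewer, drawn at the CPM of 3 counts. Tlr2 stays between 7.54 and 150.7 CPM, while Tlr13 ranges from 0.186 to 325.2 CPM.

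Among surface receptors, Tlr2, which pairs with Tlr1 or Tlr6 to sense bacterial lipoproteins, was the most evenly counted (ENSMUSG00000027995, chr3:83743576-83749074, minus strand, GRCm39). In maternal cells Tlr2 stood at 49.2 CPM in the uninjected library, 148.0 CPM after DC control mIUT, 150.7 CPM after DC control pIUT and 7.54 CPM (interval 6.63 to 8.54) after DC-depleted pIUT. In recipient cells it stood at 52.8, 126.6, 86.1 and 48.3 CPM in the same order of treatments. The maternal DC-depleted pIUT library was thus the lowest of the 8 for Tlr2, and the uninjected libraries of the 2 origins were close to each other.

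Tlr4 senses bacterial lipopolysaccharide (ENSMUSG00000039005, chr4:66745783-66849936, plus strand). Maternal levels of Tlr4 were 21.2 CPM in the uninjected library, 77.0 CPM after DC control mIUT, 101.0 CPM after DC control pIUT and 1.88 CPM (1.44 to 2.41) after DC-depleted pIUT. Recipient levels of Tlr4 were 0 CPM in the uninjected library, where 3 counts would make 0.0620 CPM, then 55.8, 8.06 and 19.0 CPM. The lowest maternal library for Tlr4 was DC-depleted pIUT, and the lowest recipient library was the uninjected one.

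Tlr1 and Tlr6 are the partners that set which lipoproteins Tlr2 recognises. Tlr1 (ENSMUSG00000044827, chr5:65082022-65090941, minus strand) reached 32.4 CPM in maternal uninjected cells, 36.5 CPM after DC control mIUT, 0.0198 CPM (1 count) after DC control pIUT and 1.97 CPM after DC-depleted pIUT. In recipient cells Tlr1 was 90.3 CPM in the uninjected library, 18.2 CPM after DC control mIUT, 0.576 CPM (26 counts) after DC control pIUT and 9.25 CPM after DC-depleted pIUT. DC control pIUT was the lowest treatment for Tlr1 in each origin, and recipient uninjected cells were the highest library. Tlr6 (ENSMUSG00000051498, chr5:65108704-65203497, minus strand) was 6.89 CPM in maternal uninjected cells, 45.5 CPM after DC control mIUT, 22.7 CPM after DC control pIUT and 1.03 CPM after DC-depleted pIUT. In recipient cells Tlr6 was 0 CPM in the uninjected library, 42.3 CPM after DC control mIUT, 4.56 CPM after DC control pIUT and 14.9 CPM after DC-depleted pIUT. Tlr1 and Tlr6 therefore took opposite extremes in the recipient uninjected library, with 4369 counts of Tlr1 and 0 of Tlr6. The maternal DC control pIUT library held 1 count of Tlr1, the lowest of the 8, beside 1150 of Tlr6, which was not its highest.

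Tlr5, the receptor for flagellin (ENSMUSG00000079164, chr1:182782311-182805500, plus strand), was counted in 2 libraries. It reached 2.58 CPM (74 counts) in recipient cells after DC control mIUT and 1.28 CPM (58 counts) after DC control pIUT. The other 6 libraries held 0 counts of Tlr5, including recipient cells after DC-depleted pIUT, where 3 counts would make 0.0547 CPM.

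Among endosomal receptors, Tlr13, which senses bacterial ribosomal RNA in the mouse, had the highest CPM per kilobase in every library except recipient uninjected cells, where it stood at 0.0401 against 0.380 for Tlr7 and 0.101 for Tlr9 (ENSMUSG00000033777, chrX:105186810-105204533, plus strand). Maternal levels of Tlr13 were 22.5 CPM in the uninjected library, 282.5 CPM after DC control mIUT, 151.1 CPM after DC control pIUT and 3.09 CPM (2.52 to 3.75) after DC-depleted pIUT. Recipient levels of Tlr13 were 0.186 CPM (9 counts, 0.0851 to 0.353) in the uninjected library, 325.2 CPM after DC control mIUT, 48.6 CPM after DC control pIUT and 25.6 CPM after DC-depleted pIUT. DC control mIUT was the highest treatment for Tlr13 in each origin.

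Promoter sequence was available for 8 of the 10 receptors (RefSeq, GRCm38.p6, windows from 250 bases before to 50 bases after an annotated start), and Tlr4 and Tlr7 were not among them. The bases before the start are shown for Tlr2 and Tlr13, the receptors counted in every library, at chr3:83841609-83841858 on the minus strand and chrX:106143025-106143274 on the plus strand. Capitals mark GAGGAAG, the core letters of the site bound by PU.1, a factor of myeloid and B cells, searched on each strand.
Tlr2: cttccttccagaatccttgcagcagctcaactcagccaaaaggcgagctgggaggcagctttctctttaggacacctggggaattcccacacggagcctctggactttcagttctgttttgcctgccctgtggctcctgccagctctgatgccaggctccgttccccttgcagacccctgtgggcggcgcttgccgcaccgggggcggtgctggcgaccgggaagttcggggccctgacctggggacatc
Tlr13: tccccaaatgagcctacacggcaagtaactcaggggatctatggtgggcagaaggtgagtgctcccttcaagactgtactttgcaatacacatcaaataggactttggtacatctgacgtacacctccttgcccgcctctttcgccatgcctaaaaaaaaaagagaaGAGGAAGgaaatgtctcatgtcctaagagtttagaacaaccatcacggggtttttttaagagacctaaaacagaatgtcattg
The letters were found in the Tlr13 window, with the first base at position -83 from the start, and not in the Tlr2 window. Of 10 windows of the receptors 3 held them (Tlr1, Tlr9 and Tlr13), and 13.6% of 32851 windows of that length over all genes did. A match of letters is a description of the sequence and is not a measured site.

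Tlr7 and Tlr8 sense single-stranded RNA and lie next to each other on the X chromosome (Tlr7 ENSMUSG00000044583, chrX:166086758-166113605, and Tlr8 ENSMUSG00000040522, chrX:166024184-166047325, each on the minus strand). Tlr7 was 18.9 CPM in maternal uninjected cells and 37.6 CPM after DC control mIUT, with 0 counts after DC control pIUT and after DC-depleted pIUT. In recipient cells Tlr7 was 1.92 CPM in the uninjected library, 47.4 CPM after DC control mIUT, 7.88 CPM after DC control pIUT and 14.7 CPM after DC-depleted pIUT. Tlr7 was thus missing from the maternal pIUT libraries, with and without DC depletion, and present in all 4 recipient libraries. Tlr8 was counted in recipient cells after IUT only, at 23.2 CPM after DC control mIUT, 3.17 CPM after DC control pIUT and 4.32 CPM after DC-depleted pIUT, with 0 counts in the other 5 libraries. Among these 3 recipient libraries Tlr8 had the same order as Tlr7, which was also counted in the uninjected libraries of each origin and in maternal cells after DC control mIUT.

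Tlr3, the receptor for double-stranded RNA (ENSMUSG00000031639, chr8:45848702-45864117, minus strand), was likewise counted in recipient cells after IUT only. Its levels were 1.499 CPM (1.09 to 2.02) after DC control mIUT, 6.58 CPM (5.85 to 7.37) after DC control pIUT and 6.00 CPM (5.37 to 6.69) after DC-depleted pIUT. Unlike Tlr7, Tlr8 and Tlr13, Tlr3 was lowest after DC control mIUT among these 3 recipient libraries, and the intervals of its pIUT levels overlapped. Tlr9, the receptor for unmethylated CpG DNA (ENSMUSG00000045322, chr9:106099797-106104082, plus strand), was highest in maternal uninjected cells, at 4.88 CPM (190 counts). In the other maternal libraries it had 0 counts after DC control mIUT, 1 count after DC control pIUT and 0 counts after DC-depleted pIUT. In recipient cells Tlr9 had 17 counts (0.352 CPM) in the uninjected library, 0 counts after DC control mIUT, 10 counts (0.221 CPM) after DC control pIUT and 9 counts (0.164 CPM) after DC-depleted pIUT. The 3 recipient values above 0 had overlapping intervals, from 0.0751 to 0.563 CPM in all.

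Scaled to transcript length, so that receptors can be set beside each other, Tlr13 led the list after DC control mIUT, at 60.9 CPM per kilobase in maternal and 70.1 in recipient cells, and in maternal cells after DC control pIUT, at 32.6. Tlr2 led in the other 3 libraries from IUT pups, at 1.48 CPM per kilobase in maternal cells after DC-depleted pIUT, 16.8 in recipient cells after DC control pIUT and 9.45 in recipient cells after DC-depleted pIUT. Tlr1 led in uninjected cells of each origin, at 10.6 CPM per kilobase in maternal cells, where Tlr2 followed at 9.63, and 29.6 in recipient cells. The leading pair together held between 48.2% and 98.7% of the summed receptor level per kilobase.

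**Figure D2:**
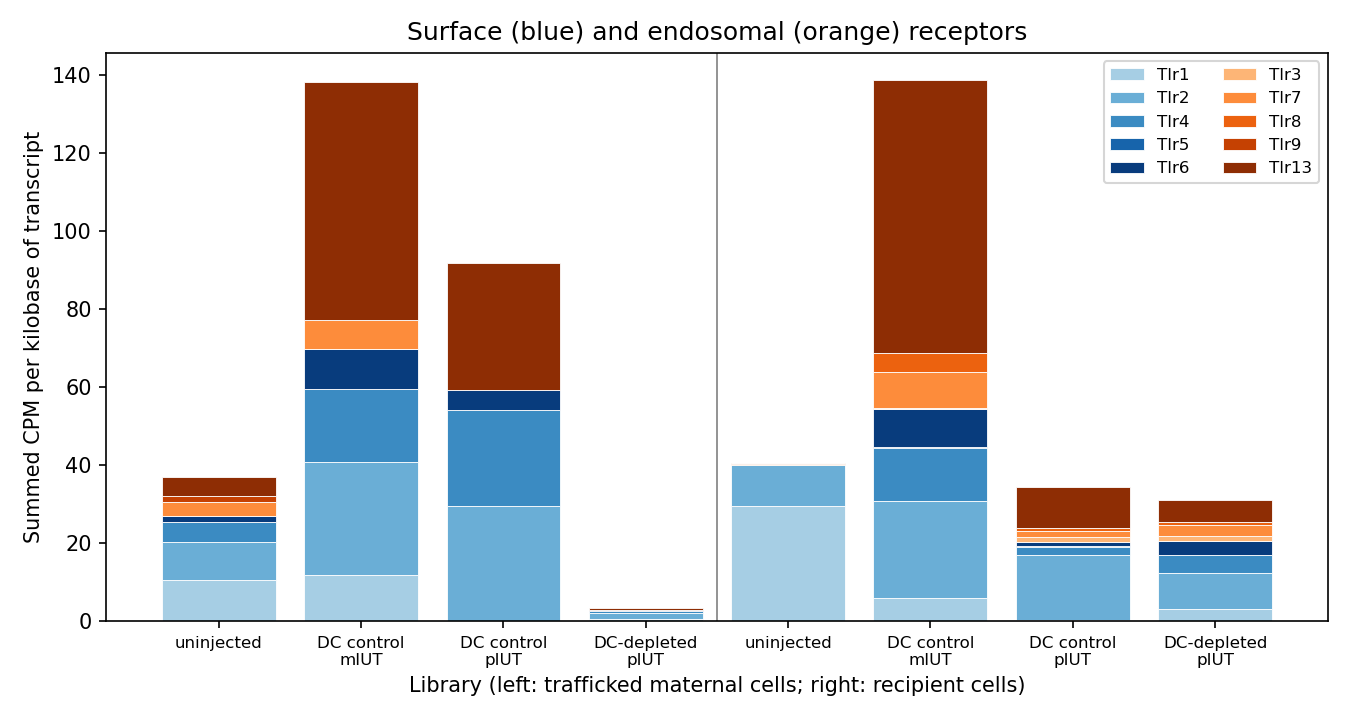
Summed CPM per kilobase of transcript for the 5 surface receptors (blue) and 5 endosomal receptors (orange), stacked by receptor, in the 4 maternal libraries (left) and 4 recipient libraries (right). Tlr13 forms most of the orange part after DC control mIUT in each origin, and the recipient uninjected bar is almost all Tlr1 and Tlr2.

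Surface receptors outweighed endosomal receptors in uninjected cells, and most in recipient cells. In maternal cells surface receptors took 70.3% of receptor counts in the uninjected library (exact Clopper-Pearson interval 69.1 to 71.4%), 49.0% after DC control mIUT (48.3 to 49.6%), 64.5% after DC control pIUT (63.9 to 65.1%) and 80.1% after DC-depleted pIUT (76.4 to 83.5%). In recipient cells the share was 98.3% in the uninjected library (98.0 to 98.6%), 38.2% after DC control mIUT (37.5 to 38.9%), 60.2% after DC control pIUT (59.1 to 61.3%) and 64.3% after DC-depleted pIUT (63.2 to 65.3%). DC control mIUT gave the lowest share in each origin. As given below, this rank rested on Tlr13 in maternal cells and on the most abundant receptor of each group in recipient cells. The counting intervals of the 8 libraries did not overlap apart from those of maternal DC control pIUT and recipient DC-depleted pIUT.

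Per kilobase, the log2 ratio of surface to endosomal receptors in maternal cells was 1.43 in the uninjected library, 0.034 after DC control mIUT, 0.86 after DC control pIUT and 2.08 after DC-depleted pIUT. In recipient cells it was 6.26, -0.64, 0.52 and 0.94 in the same order. The near balance after DC control mIUT rested on Tlr13: without it the log2 ratio there was 3.24 in maternal and 1.92 in recipient cells. Maternal DC control mIUT then stood above maternal uninjected cells, which had 2.39 without Tlr13, and likewise at 2.46 against 1.67 without the most abundant receptor of each group. Recipient DC control pIUT turned from 0.52 to -0.10 without the most abundant receptor of each group, Tlr2 and Tlr13, and then stood below recipient DC control mIUT. The summed endosomal level moved more than the surface level in recipient cells, from 2.46 CPM in the uninjected library to 397.3, 66.5 and 50.8 CPM after IUT, against 143.2 CPM and then 245.4, 100.6 and 91.4 CPM for surface receptors.

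To read the effect of IUT, each library from IUT pups was divided by that of uninjected pups of its origin. A receptor is called here when the ratio of scaled counts was 4-fold or more, with a library at 3 counts or fewer set to 3 counts, so that a ratio against 0 counts is a lower bound. In maternal cells 7 receptors could be compared. After DC control mIUT 2 of 7 were called higher, beside 16.9% of all genes tested, and 1 lower, beside 34.3%. Tlr13 was 12.5-fold higher (log2 ratio 3.65, interval 3.55 to 3.75) and Tlr6 6.61-fold higher (2.72, 2.54 to 2.91). Tlr9 was at least 63.0-fold lower. The others fell short of the 4-fold rule, with log2 ratios of 1.59 for Tlr2, 1.86 for Tlr4, 0.99 for Tlr7 and 0.17 for Tlr1, the last turning to -0.043 when only library size was scaled. The median over the 7 receptors, with bounds as values, was 1.59, beside -0.60 over all genes. At 2-fold 5 of 7 were called, 4 higher and 1 lower, beside 26.5% and 44.0% of all genes. Neutrophil markers summed to 168000 CPM in this library against 2439 CPM in maternal uninjected cells, and B cell markers to 361.5 CPM against 7338 CPM. Hepatocyte markers summed to 4059 CPM against 33.3 CPM, with Apoa1 at 3824 CPM against 5.94 CPM, and epithelial markers to 404.0 CPM against 23.4 CPM. Their part in the ratios was not tested.

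After DC control pIUT 2 of 7 maternal receptors were called higher, beside 22.9% of all genes, and 3 lower, beside 22.5%. Tlr13 was 6.70-fold higher (log2 ratio 2.74) and Tlr4 4.77-fold higher (2.25, 2.15 to 2.36). Tlr1 fell from 1259 counts to 1, at least 545.5-fold by the rule. With the 1 count kept, the ratio was 1637-fold, with a counting interval from 293.2-fold to 64690-fold. Tlr7 was at least 318.9-fold lower, and Tlr9, from 190 counts to 1, at least 82.3-fold lower by the rule. With its 1 count kept, Tlr9 was 247.0-fold lower, with an interval from 43.8-fold to 9806-fold. Tlr2 and Tlr6 had log2 ratios of 1.61 and 1.72, the latter 2.07 and past the rule when only library size was scaled. The median over the 7 receptors was 1.61, beside 0.0010 over all genes. The pIUT cells of maternal origin thus combined more Tlr13 and Tlr4 with almost no Tlr1, Tlr7 and Tlr9. In this library B cell markers summed to 70.2 CPM against 7338 CPM in maternal uninjected cells, and pan-leukocyte markers to 868.1 CPM against 7207 CPM, and their part in the ratios was not tested.

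After DC-depleted pIUT all 7 comparable maternal receptors were called lower, beside 24.1% of all genes, and 0 higher, beside 21.8%. Log2 ratios of the receptors still above 3 counts were -2.71 for Tlr2, -2.74 for Tlr6, -2.87 for Tlr13, -3.50 for Tlr4 and -4.04 for Tlr1, which are falls between 6.53-fold and 16.4-fold. Tlr7 was at least 208.2-fold lower and Tlr9 at least 53.7-fold lower. The median was -3.50, beside 0.061 over all genes. In this library pan-leukocyte markers summed to 458.3 CPM, against 7207 CPM in maternal uninjected cells, and erythroid markers to 131800 CPM against 61180 CPM. The part of this shift in the fall of the receptors was not tested.

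**Figure D3:**
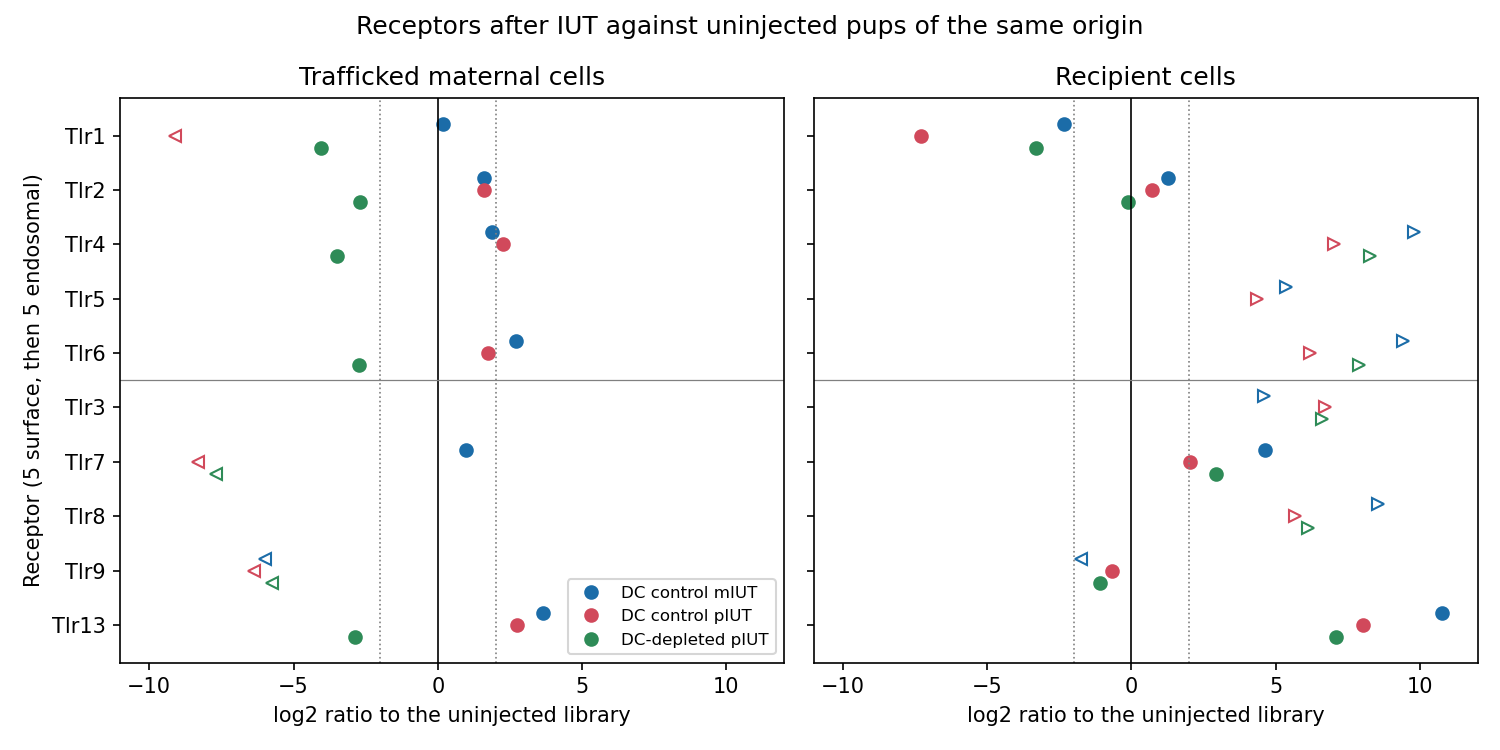
Log2 ratio of each receptor to the uninjected library of the same origin after DC control mIUT (blue), DC control pIUT (red) and DC-depleted pIUT (green), for maternal cells (left) and recipient cells (right). Open arrows are ratios in which a library held 3 counts or fewer and was set to 3, dotted lines mark 4-fold, and receptors at 3 counts or fewer in each library have no point. Green points lie left of the dotted line for all 7 maternal receptors and right of it for 6 of 9 recipient receptors.

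All 3 recipient comparisons used the same uninjected library, which lacked 9.51% of the genes well counted in the other libraries and stood apart in markers of other cells. Epithelial markers summed to 2478 CPM there (Krt18 1262 CPM, Krt8 1136 CPM), against between 4.08 and 29.97 CPM in the other recipient libraries. Hepatocyte markers summed to 1160 CPM, of which Apoa1 held 1039 CPM, against between 1.02 and 483.6 CPM, and erythroid markers to 84460 CPM, against between 134.6 and 27430 CPM. The part of the shortfall and of these cells in the ratios was not tested. In recipient cells all 10 receptors could be compared after DC control mIUT. Of these 7 were called higher, beside 42.6% of all genes, and 1 lower, beside 16.1%. Tlr13 rose from 9 to 9326 counts, 1748-fold on the CPM scale (log2 ratio 10.77, interval 9.83 to 11.71), and Tlr7 was 24.6-fold higher (4.62, 4.32 to 4.92). The receptors without a count in the uninjected library were higher by at least 899.4-fold for Tlr4, 681.3-fold for Tlr6, 374.4-fold for Tlr8, 41.6-fold for Tlr5 and 24.2-fold for Tlr3. Tlr1 was 4.97-fold lower (log2 ratio -2.31), and Tlr2 had a log2 ratio of 1.26. Tlr9, at 17 counts against 0, was at least 3.36-fold lower, and past the rule when only library size was scaled (log2 ratio -2.30). The median was 5.00, beside 1.27 over all genes.

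After DC control pIUT 7 of 10 recipient receptors were again called higher, beside 41.7% of all genes, and 1 lower, beside 12.2%. Tlr13 was 261.3-fold higher (log2 ratio 8.03, interval 7.08 to 8.97). Against 0 counts, Tlr4 was at least 129.9-fold, Tlr3 106.0-fold, Tlr6 73.5-fold, Tlr8 51.0-fold and Tlr5 20.7-fold higher. Tlr7, at 4.10-fold (log2 ratio 2.04, 1.71 to 2.36), lay at the edge of the rule and missed it with DESeq2 size factors (1.88). Tlr1 was 156.9-fold lower (log2 ratio -7.29, -7.85 to -6.74), while Tlr2 and Tlr9 had log2 ratios of 0.70 and -0.67. The median was 5.02, beside 1.13 over all genes. Natural killer (NK) cell markers summed to 697.0 CPM against 28.6 CPM in recipient uninjected cells, and T cell markers to 4001 CPM against 700.4 CPM. Neutrophil markers summed to 48330 CPM against 16270 CPM. B cell markers went the other way, to 228.3 CPM against 1299 CPM, as did macrophage and monocyte markers, to 651.8 CPM against 2383 CPM. The part of these cells in the ratios was not tested.

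After DC-depleted pIUT 6 of 9 comparable recipient receptors were called higher, beside 42.9% of all genes, and 1 lower, beside 9.99%. Tlr13 was 137.7-fold (log2 ratio 7.11) and Tlr7 7.63-fold higher (2.93), and Tlr4, Tlr6, Tlr3 and Tlr8 were at least 306.1-fold, 239.4-fold, 96.8-fold and 69.7-fold higher. Tlr1 was 9.77-fold lower (log2 ratio -3.29). Tlr2 had a log2 ratio of -0.13, or 0.26 when only library size was scaled, and Tlr9 had -1.10 (interval -2.26 to 0.068). The median was 6.12, beside 1.23 over all genes. Tlr1 was the receptor called lower in all 3 recipient comparisons, and Tlr9 had log2 ratios below 0 in each without a call. Summed with Tlr6, as given below, Tlr1 stayed within 4-fold in 2 of the 3.

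Depletion of maternal DC was read by comparing DC-depleted pIUT with DC control pIUT within each origin. Among maternal cells 5 receptors could be compared, of which 4 were called lower, beside 26.3% of all genes, and 1 higher, beside 24.4%. Tlr4 was 53.8-fold lower (log2 ratio -5.75, interval -6.11 to -5.39), Tlr13 48.9-fold (-5.61), Tlr6 22.1-fold (-4.46) and Tlr2 19.99-fold (-4.32). Tlr1 went the other way, from 1 count to 65, at least 33.2-fold by the rule. With the 1 count kept, the rise was 99.6-fold, with an interval from 17.2-fold to 3993-fold. The receptors' median was -4.46, beside 0.10 over all genes. Of the genes called here 48.1% were higher, or 36.3% when only library size was scaled. Of the 4 pan-leukocyte markers, Ptprc went from 70.2 to 2.64 CPM and Laptm5 from 444.5 to 30.6 CPM here, whereas Coro1a went from 260.2 to 328.1 CPM and Cd52 from 93.1 to 96.97 CPM, and their sum from 868.1 to 458.3 CPM. Endothelial markers summed to 64.6 CPM, with 5 of 6 above 3 counts, and then to 0.485 CPM, with 1 of 6. As sums, neutrophil markers went the other way, from 1754 to 10900 CPM, as did hepatocyte markers, from 108.1 to 374.4 CPM. Within the neutrophil list Cxcr2 fell from 73.3 to 2.27 CPM, Mmp8 from 158.1 to 16.8 CPM and Ltf from 85.2 to 76.9 CPM. The rest of that list rose. The part of these cells in the fall of the receptors was not tested.

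Among recipient cells all 10 receptors could be compared and most kept within 4-fold. Of these 1 was called higher, beside 13% of all genes, and 1 lower, beside 6.53%. Tlr1 was 16.1-fold higher (log2 ratio 4.01, interval 3.44 to 4.58), as it had also been higher in maternal cells. Tlr5, from 58 counts to 0, was at least 23.5-fold lower. The remaining log2 ratios ran from -0.92 for Tlr13 and -0.83 for Tlr2 to 1.24 for Tlr4 and 1.70 for Tlr6, with Tlr3, Tlr7, Tlr8 and Tlr9 between. The receptors' median was 0.16, beside 0.12 over all genes. At 2-fold 4 of 10 were called, 3 higher and 1 lower, beside 24.1% and 14.9% of all genes. Between these libraries hepatocyte markers went from 1.02 to 483.6 CPM, T cell markers from 4001 to 975.1 CPM and neutrophil markers from 48330 to 20850 CPM, although the neutrophil precursor gene Mpo went from 415.6 to 10460 CPM. The part of these cells in the ratios was not tested. Tlr4 and Tlr6 thus had log2 ratios of opposite sign in the origins, and Tlr2 and Tlr13 were below 0 in each.

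Since reads may be divided between Tlr1 and Tlr6, their counts were also summed and treated as 1 receptor. Against uninjected cells the summed log2 ratio in maternal cells was 1.06 after DC control mIUT, -0.79 after DC control pIUT and -3.71 after DC-depleted pIUT, and in recipient cells -0.58, -4.14 and -1.91. The sum was thus within 4-fold where Tlr6 was called higher in maternal cells after DC control mIUT and Tlr1 lower after DC control pIUT, and where the 2 were called in opposite directions in recipient cells after DC control mIUT and after DC-depleted pIUT. After recipient DC control pIUT the sum was lower, as Tlr1 was, although Tlr6 was called higher. Between DC-depleted and DC control pIUT the summed log2 ratio was -2.92 in maternal cells, the direction of Tlr6 and not of Tlr1, and 2.23 in recipient cells. With the sum as 1 receptor, those called higher and lower in maternal cells were 1 and 1 of 6 after DC control mIUT, 2 and 2 of 6 after DC control pIUT, and 0 and 6 of 6 after DC-depleted pIUT, beside 16.9, 22.9 and 21.8% of all genes higher and 34.3, 22.5 and 24.1% lower. In recipient cells they were 6 and 0 of 9, 6 and 1 of 9, and 5 and 0 of 8, beside 42.6, 41.7 and 42.9% of all genes higher and 16.1, 12.2 and 9.99% lower. Between DC-depleted and DC control pIUT they were 0 and 4 of 4 in maternal cells, beside 24.4 and 26.3%, and 1 and 1 of 9 in recipient cells, beside 13% and 6.53%.

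Maternal and recipient cells of the same treatment were compared across the 4 treatments with the treatment as a block, by edgeR's quasi-likelihood test with 3 residual degrees of freedom before moderation and Benjamini-Hochberg adjustment over 13353 genes. The spread in this test is that of the origin difference between treatments and not of replicate pools. No gene was called at an adjusted p of 0.05, which is 0.0% of those tested, and 273 had an unadjusted p under 0.05, none of them a receptor. A DESeq2 Wald test of the same design called 296 genes, of which 0 were receptors. Of the receptors 6 passed the filter on low counts. Their log2 differences, maternal minus recipient, were 2.16 (SE 2.75) for Tlr4, 1.32 (2.78) for Tlr6, 0.90 (1.65) for Tlr13, -0.31 (0.73) for Tlr2, -1.72 (1.42) for Tlr1 and -4.48 (5.56) for Tlr7, each with an adjusted p of 1.0 by edgeR. Mean levels in maternal and recipient cells were 88.9 and 78.5 CPM for Tlr2, and 114.8 and 99.9 CPM for Tlr13. The differences were smaller than their standard errors for Tlr2, Tlr4, Tlr6, Tlr7 and Tlr13.

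Proteins that help the receptors were described from a list of 13. Cd14, which hands lipopolysaccharide to Tlr4, stood at 132.0, 348.1, 1012 and 5.24 CPM in maternal cells, in the order uninjected, DC control mIUT, DC control pIUT and DC-depleted pIUT, and at 256.2, 205.2, 119.9 and 44.7 CPM in recipient cells. Its maternal order was the same as that of Tlr4. Ly96, the partner of Tlr4 also called MD-2, changed less in maternal cells, at 19.7, 22.9, 11.0 and 8.33 CPM, and stood at 35.6, 19.5, 5.87 and 5.64 CPM in recipient cells. Recipient uninjected cells thus held Cd14 and Ly96 but no count of Tlr4. Unc93b1 was 815.8 CPM in maternal uninjected cells against 117.4, 61.5 and 30.4 CPM after IUT, and 328.0, 357.9, 251.5 and 331.4 CPM in recipient cells. The chaperone of the endosomal receptors was thus lowest in maternal cells after DC-depleted pIUT, the library with the least Tlr13 among maternal cells. It did not follow Tlr13 in the other maternal libraries, being highest in uninjected cells, where Tlr13 was 22.5 CPM. Tlr13 was 282.5 and 151.1 CPM after DC control mIUT and pIUT. Unc93b1 was nearly level across recipient cells, where Tlr13 ranged widely. Cd180, a relative of Tlr4 on B cells, was 21.6, 0, 5.40 and 0 CPM in maternal and 13.4, 1.12, 1.79 and 3.74 CPM in recipient cells. Ctsl, a protease that cleaves endosomal receptors, was 35.2, 904.7, 121.1 and 145.4 CPM in maternal cells and 423.9, 85.0, 181.2 and 107.9 CPM in recipient cells. Of the 13 helpers, 5 were called higher and 5 lower in maternal cells after DC control mIUT, 2 and 3 after DC control pIUT, and 1 and 6 after DC-depleted pIUT, beside 16.9, 22.9 and 21.8% of all genes higher and 34.3, 22.5 and 24.1% lower in the same order. In recipient cells 2 were higher and 6 lower after DC control mIUT, 1 and 6 after DC control pIUT, and 1 and 2 after DC-depleted pIUT, beside 42.6, 41.7 and 42.9% of all genes higher and 16.1, 12.2 and 9.99% lower.

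Among 17 adaptors and kinases, Myd88, the adaptor of every receptor here except Tlr3, was counted in all libraries, at 114.1, 161.1, 41.1 and 43.7 CPM in maternal cells and 54.9, 304.6, 90.5 and 72.5 CPM in recipient cells in the same order. It was highest after DC control mIUT in each origin, as Tlr13 was. Ticam1, the adaptor of Tlr3 and also used by Tlr4, was 13.6 CPM in maternal uninjected cells, 0 CPM after DC control mIUT and pIUT and 1.70 CPM after DC-depleted pIUT, and in recipient cells 0, 5.51, 2.83 and 2.34 CPM. In recipient cells Ticam1 was absent from the uninjected library together with Tlr3 and Tlr4. The kinase Irak1 was between 17.3 and 108.5 CPM in maternal and between 41.04 and 70.98 CPM in recipient cells, and Chuk between 6.40 and 88.9 CPM and between 33.2 and 47.0 CPM. After IUT 1 and 8 of the 17 were called higher and lower in maternal cells for DC control mIUT, 3 and 3 for pIUT without depletion, and 2 and 9 for DC-depleted pIUT, beside 16.9, 22.9 and 21.8% of all genes higher and 34.3, 22.5 and 24.1% lower. The recipient counts were 6 and 3, 5 and 4, and 5 and 2, beside 42.6, 41.7 and 42.9% of all genes higher and 16.1, 12.2 and 9.99% lower.

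None of 8 transcription factors of the pathway was called higher in any of the 6 comparisons with uninjected cells, where between 16.9 and 42.9% of all genes were. The numbers lower were 4, 5 and 5 in maternal and 3, 2 and 1 in recipient cells, in the order DC control mIUT, DC control pIUT and DC-depleted pIUT, beside 34.3, 22.5 and 24.1% of all genes in maternal and 16.1, 12.2 and 9.99% in recipient cells. Irf8, a factor of B cells and dendritic cells, was 420.3, 64.2, 9.81 and 6.09 CPM in maternal cells and 114.0, 38.8, 169.6 and 192.5 CPM in recipient cells. Rela, the NF-kB subunit p65, was 199.4, 98.2, 61.5 and 37.4 CPM and then 62.9, 175.1, 123.2 and 71.8 CPM, and Irf7 lay between 28.7 and 191.6 CPM throughout. Irf8 and Rela thus had their highest maternal level in uninjected cells and their lowest after DC-depleted pIUT. Among 8 inhibitors Nfkbia, which holds NF-kB in the cytoplasm, was 1040, 840.6, 1429 and 88.9 CPM in maternal and 679.5, 855.1, 1674 and 212.1 CPM in recipient cells, lowest after DC-depleted pIUT in each origin. Tnfaip3, a brake on NF-kB also called A20, was counted unevenly, at 140.6, 0.155, 185.0 and 0.0303 CPM in maternal and 167.4, 9.94, 340.3 and 96.0 CPM in recipient cells. Nrros, which binds Toll-like receptors in the endoplasmic reticulum, stayed between 127.5 and 344.2 CPM. Called higher and lower among the inhibitors tested were 1 and 1, 1 and 2, and 1 and 5 of 8 in maternal cells, beside 16.9, 22.9 and 21.8% of all genes higher and 34.3, 22.5 and 24.1% lower. In recipient cells they were 3 and 1 of 7, 3 and 0 of 7, and 4 and 0 of 8, beside 42.6, 41.7 and 42.9% of all genes higher and 16.1, 12.2 and 9.99% lower, so the shares higher lay close to those of all genes.

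Targets of the pathway were read from a list of 18 cytokine, chemokine and co-stimulatory genes. Il1b, the inflammatory cytokine, was 93.7, 122.3, 1149 and 5.18 CPM in maternal and 39.3, 59.9, 64.6 and 8.99 CPM in recipient cells. The chemokine Ccl3 was 110.9, 44.7, 728.4 and 0.575 CPM in maternal and 38.4, 2.58, 58.2 and 30.99 CPM in recipient cells, and the chemokine Cxcl2 was 40.1, 97.4, 667.5 and 3.33 CPM in maternal and 103.2, 11.7, 150.8 and 6.04 CPM in recipient cells. These 3 were named for the highest mean CPM over the 8 libraries, to which maternal cells after DC control pIUT gave the most, so their peak there is not a separate result. Other targets went the other way in that library, where the chemokine Ccl5 had 137 counts against 12217 in maternal uninjected cells and the co-stimulatory receptor Cd40 had 0 against 3637. Ccl5 and Cd40 were chosen after their values were seen. In maternal cells 2 of 16 targets tested were called higher and 10 lower after DC control mIUT, 8 and 5 of 17 after DC control pIUT, and 1 and 14 of 16 after DC-depleted pIUT, beside 16.9, 22.9 and 21.8% of all genes higher and 34.3, 22.5 and 24.1% lower. Their median log2 ratios were -3.38, 1.83 and -4.01, against -0.60, 0.0010 and 0.061 over all genes. In recipient cells 1 of 12 were higher and 6 lower, then 6 and 1 of 15, and 6 and 5 of 15, beside 42.6, 41.7 and 42.9% of all genes higher and 16.1, 12.2 and 9.99% lower. Their medians were -2.06, 0.91 and 1.24, against 1.27, 1.13 and 1.23 over all genes, so that the targets' medians in both recipient pIUT comparisons lay close to the median gene. Between DC-depleted and DC control pIUT 1 of 14 maternal targets was called higher and 11 lower, beside 24.4 and 26.3% of all genes, with a median of -6.81 against 0.10. Of 16 recipient targets 2 were higher and 5 lower, beside 13% and 6.53%, with a median of -0.90 against 0.12.

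**Figure D4:**
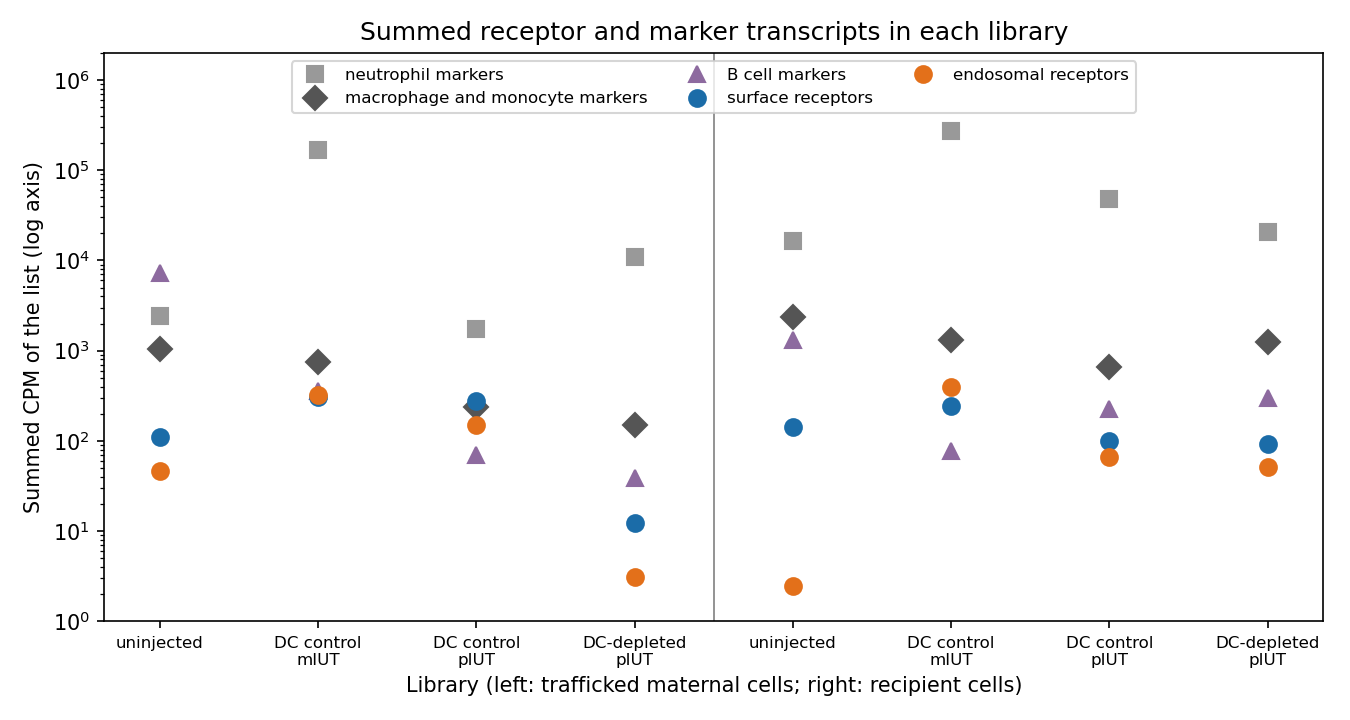
Summed CPM on a log axis of the 5 surface receptors, the 5 endosomal receptors and marker lists of neutrophils, macrophages and monocytes, and B cells, each of 10 genes, in the 4 maternal libraries (left) and 4 recipient libraries (right). Neutrophil markers and endosomal receptors are each highest in recipient cells after DC control mIUT, and in maternal cells B cell markers are highest in the uninjected library.

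Markers of the cells that carry these receptors moved with them in some libraries. Neutrophil markers summed to 2439, 168000, 1754 and 10900 CPM in maternal cells and 16270, 274600, 48330 and 20850 CPM in recipient cells, and all 10 exceeded 3 counts except in maternal cells after DC control pIUT, where 7 did and Elane and Prtn3 were at 0. DC control mIUT, the treatment with the most Tlr13 in each origin, had the highest sum of neutrophil markers. In recipient cells the precursor genes Mpo, Elane and Prtn3 did not follow that sum. Mpo stood at 4385, 997.7, 415.6 and 10460 CPM there, Elane at 1236, 270.1, 77.2 and 1806 CPM and Prtn3 at 361.0, 201.6, 55.4 and 894.4 CPM. The rest of the list peaked after DC control mIUT in recipient cells, as the whole list did in maternal cells. Yet maternal cells after DC control pIUT had 151.1 CPM of Tlr13 with the lowest neutrophil sum of all. Macrophage and monocyte markers summed to 1056, 740.7, 236.2 and 149.1 CPM in maternal and 2383, 1311, 651.8 and 1246 CPM in recipient cells. Between 7 and 10 of the 10 exceeded 3 counts, and Csf1r was counted in every library. After DC control mIUT the sum was mostly Ly6c2, at 536.7 CPM in maternal and 1147 CPM in recipient cells, while the macrophage marker Adgre1 was at 0 and 5.82 CPM and Vsig4 at 0 in each. Without Ly6c2 the sums were 725.3, 204.0, 229.7 and 117.5 CPM in maternal and 2242, 163.2, 272.4 and 900.5 CPM in recipient cells, which makes recipient DC control mIUT the lowest recipient library. Recipient uninjected cells, with no count of Tlr4 or Tlr6, had the highest sum of these markers with and without Ly6c2. B cell markers summed to 7338, 361.5, 70.2 and 38.2 CPM in maternal and 1299, 76.8, 228.3 and 298.6 CPM in recipient cells, and Pax5 was at 0 in maternal cells after each IUT. Maternal uninjected cells, where Tlr9 and Unc93b1 were highest, had the most B cell markers. Plasmacytoid dendritic cell markers summed to 253.4, 43.9, 221.2 and 36.9 CPM in maternal and 16.2, 56.2, 307.7 and 156.4 CPM in recipient cells, and some of these sums rested on 1 gene. Ptprs held 209.9 CPM of the sum in maternal cells after DC control pIUT, where Siglech, Klk1, Cd300c, Dntt and Lair1 were at 0 and the sum without Ptprs was 11.3 CPM. Spib held 175.3 CPM in maternal uninjected cells, the library with the most B cell markers, and the sum there without Spib was 78.1 CPM. Siglech was also at 0 in maternal cells after DC control mIUT and in recipient cells of uninjected and DC control mIUT pups.

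Conventional dendritic cell markers summed to 236.1, 6.66, 39.2 and 81.3 CPM in maternal and 105.0, 12.2, 151.6 and 166.9 CPM in recipient cells. In maternal cells after DC-depleted pIUT Zbtb46 held 76.5 CPM of the sum, with Clec9a, Cd209a, Clec10a and Itgae at 0. Between DC control and DC-depleted pIUT in maternal cells Itgax, the gene whose promoter drives the DT receptor, went from 12.1 to 0.0303 CPM (1 count), Clec10a from 4.65 to 0 CPM and Xcr1 from 1.48 to 0.242 CPM. Zbtb46 went from 21.0 to 76.5 CPM, and Ccr7, Batf3 and Flt3 from 0 to 2.03, 1.88 and 0.606 CPM, while Clec9a, Cd209a and Itgae were at 0 in each library. Without Zbtb46 the maternal sums were 230.8, 6.66, 18.2 and 4.79 CPM, lowest after DC-depleted pIUT. The genes left out of these marker sums were chosen after their values were seen. The part of these cell types in the levels of the receptors was not tested.

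Likeness of pattern was measured by Pearson's r of log2(CPM + 1) over the 8 libraries for the 6 receptors above 3 counts in at least 6 of them, against 9697 genes at 10 CPM or more in at least 2 libraries. The points share treatments and uneven detection, and r is given as a description. The genes most like Tlr13 were Rhbdf2 (r = 0.989), Tmem38b (0.987) and Stk39 (0.983), and 157 genes reached 0.9. Those most like Tlr6 were Nek6 (0.973), Rhbdf2 (0.971) and Birc6 (0.970), and those most like Tlr4 were Zswim4 (0.975), Gm48283 (0.974) and Zc3h3 (0.973). Rhbdf2 was thus among the 3 nearest genes of Tlr6 and Tlr13. Tlr2 was most like Litaf (0.976), Slc11a1 (0.970) and Nfil3 (0.964), Tlr7 like Arhgap1 (0.972), Pxk (0.964) and Tmem131l (0.963), and Tlr1 like Piezo1 (0.967), Tent5a (0.962) and Smpdl3a (0.932). Only 12 genes reached 0.9 with Tlr1, the fewest of the 6 receptors. Among the receptors themselves the highest r values were 0.962 for Tlr4 with Tlr6, 0.958 for Tlr6 with Tlr13 and 0.944 for Tlr4 with Tlr13, so the closest pairs included a surface receptor with an endosomal one.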

How the data were processed

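RNA of the 8 pooled libraries was sequenced with 150 base reads. The authors ran the RNA-seq pipeline of nf-core on GRCm39 and its GENCODE M26 annotation. The deposited values are estimated counts per gene, of which 8.64% are fractional, as a salmon table holds, while the methods name featureCounts. Counts were rounded. Antigen receptor clonotype tables were not used. Gene IDs were named from a later GENCODE release, which matched 97.99% of them, and lengths are those of the longest transcript.

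The receptors and the pathway and marker lists were chosen with earlier results of these data known. All 10 receptors are named, and of each pathway list the 3 genes with the highest mean CPM plus Cd14, Ly96, Cd180, Unc93b1, Myd88 and Ticam1. CPM used TMM factors (edgeR 4.0.16, R 4.3.3). Ratios between single libraries carry no p, and a library at 3 counts or fewer was set to 3. The study fixed a dispersion of 0.4, which has no bearing on a ratio. The test of origin used filterByExpr and edgeR's quasi-likelihood fit, with DESeq2 1.42.0 as an alternative, and the script was tested on simulated data. Maternal and recipient cells of each treatment came from the same pooled pups, which is where the treatment block comes from. Intervals of levels are exact Poisson, of shares Clopper-Pearson, and of ratios with 1 count exact binomial, all at 95%. The remaining intervals of log2 ratios are normal approximations from the counts. Alternatives were another scaling, prior count, floor and fold, transcript lengths, receptors left out, treatments left out, and counts of Tlr1 and Tlr6 summed, the last and the removal of both uninjected and mIUT pairs being chosen after seeing the data.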

Additional observations from a re-analysis of the deposited data

Results flagged for a closer look

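Receptors whose log2 ratio was at least 2-fold in opposite directions in maternal and recipient cells under the same contrast are given here. The differences were not tested, since each ratio compares 2 libraries. The share of all genes with opposite directions was not computed, so the list is not shown to be particular to the receptors. After DC-depleted pIUT against uninjected cells, 24.1% of all genes were at least 4-fold lower in maternal cells and 42.9% higher in recipient cells. These shares were 22.5 and 41.7% after DC control pIUT, and 26.3 and 13% between DC-depleted and DC control pIUT. After DC control pIUT against uninjected cells, Tlr7 was lower in maternal and higher in recipient cells, and the log2 ratios differed by 10.35. After DC-depleted pIUT against uninjected cells the same held for Tlr4 (difference 11.75), Tlr6 (10.64), Tlr7 (10.63) and Tlr13 (9.97). Between DC-depleted and DC control pIUT it held for Tlr4 (6.99) and Tlr6 (6.17), which compare libraries other than the uninjected ones. With the counts of Tlr1 and Tlr6 summed, the directions were the same in both origins against uninjected cells after DC-depleted pIUT, at -3.71 in maternal and -1.91 in recipient cells, and stayed opposite between DC-depleted and DC control pIUT, at -2.92 and 2.23. Differences that use a count of 0 are lower bounds, which applies to Tlr7 in each contrast and to Tlr4 and Tlr6 against uninjected cells.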

How the results depend on the processing

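Log2 ratios of the receptors stayed within their counting interval in 268 alternatives, moved beyond it in 56, and changed the sign of a called ratio in 0. For this a count of 0 was taken as 1. These numbers do not count calls. Tlr7 in recipient cells after DC control pIUT lost its call with DESeq2 size factors while within its interval. With a fold of 2, the receptors called in maternal cells after DC control mIUT were 5 of 7 in place of 3, and in recipient cells between DC-depleted and DC control pIUT 4 of 10 in place of 2. Comparisons of treatments set 1 library against 1 and have no pairs. The origin test was paired, with the treatment as the block, and leaving out the block called 0 genes, as with it, and turned Tlr2 to 0.21. Leaving out the libraries of each treatment in turn called 0 genes and 0 receptors each time. Without the uninjected pair 8 receptors could be tested, of which Tlr3 and Tlr8 had an unadjusted p under 0.05, with log2 differences of -10.44 and -11.28 that depend on the prior count, since every maternal library was at 0. An unadjusted p under 0.05 was also found for Tlr8 without the filter, for Tlr7 by DESeq2, and for Tlr3 and Tlr7 without the uninjected and DC control mIUT pairs. The log2 differences of the receptors tested with all libraries ranged from -0.75 to 0.34 for Tlr2, -0.14 to 2.99 for Tlr6, -0.34 to 2.30 for Tlr13, -2.54 to -0.91 for Tlr1, 0.48 to 4.06 for Tlr4 and -8.88 to -0.64 for Tlr7. Tlr2 turned to 0.34 without the DC-depleted pIUT pair, and Tlr6 and Tlr13 to -0.14 and -0.34 without the uninjected pair. Without the uninjected and DC control mIUT pairs, which hold the libraries with the fewest genes, Tlr6 was -0.60 and Tlr13 -0.55. The DESeq2 Wald test called 296 genes, with 777 adjusted p-values not given.

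The log2 ratio of surface to endosomal receptors depended on length scaling and on Tlr13. With unscaled counts it was 1.24 and -0.060 in maternal uninjected and DC control mIUT cells, and 5.86, -0.69, 0.60 and 0.85 in recipient cells. With the union of exons as length it was 1.24, -0.20 and 0.54 in the first 3 maternal libraries, and -0.86, 0.41 and 0.76 in recipient cells after DC control mIUT, DC control pIUT and DC-depleted pIUT. Without Tlr13 it was 2.39 and 3.24 in maternal uninjected and DC control mIUT cells and 1.92, 2.46 and 2.00 in the 3 recipient IUT libraries. Without the most abundant receptor of each group these were 1.67 and 2.46, and 1.04, -0.10 and 1.11. The maternal pIUT libraries gave no value without Tlr13, since no other endosomal receptor exceeded 3 counts. The ratios after DC control mIUT in each origin and after DC control pIUT in recipient cells therefore have no stable direction. Scaling by library size only moved the median over all genes from -0.60 to -0.82, 0.0010 to 0.35 and 0.061 to -0.18 in the maternal comparisons with uninjected cells, from 1.27 to 0.72, 1.13 to 1.29 and 1.23 to 1.63 in the recipient ones, and from 0.10 to -0.48 and 0.12 to 0.35 between DC-depleted and DC control pIUT. Ratios against the recipient uninjected library have no form without it.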

Other observations

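Tlr11 and Tlr12, the mouse receptors for profilin of protozoa, lie outside the 10 receptors described. Tlr11 was counted in recipient cells after IUT only, at 3.03 CPM after DC control mIUT, 9.48 CPM after DC control pIUT and 7.55 CPM after DC-depleted pIUT, with 0 counts in the other 5 libraries. Tlr12 was counted in the same 3 recipient libraries, at 3.66, 7.04 and 5.82 CPM, and in maternal cells after DC-depleted pIUT, at 2.91 CPM (96 counts), where the other endosomal receptors except Tlr13 had 0 counts. Their order among recipient IUT libraries was that of Tlr3, lowest after DC control mIUT and highest after DC control pIUT.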
